A study of Mus musculus with 10 samples.

Results

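The R-spondins Rspo1, Rspo2 and Rspo3 and the secreted Wnt antagonists Sfrp1, Frzb, Wif1, Dkk1, Dkk2 and Dkk3 were followed in RNA-seq counts from mouse cortex at embryonic stage E12.5. These 9 genes were matched by symbol, each to 1 of the 56748 gene identifiers counted, and all 9 passed the filter on low counts that left 18163 genes for testing. The 10 libraries were labelled Emx2 KO (5) or WT (5). Emx2 encodes a homeobox transcription factor of the dorsal telencephalon, from which the cortex forms. The labels give no strain, allele, sex or number of embryos per library. The p-values therefore rest on the spread from library to library, part of which may be technical.

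Wnt proteins signal through Frizzled receptors and the co-receptors LRP5 and LRP6. R-spondins bind LGR receptors and the membrane ubiquitin ligases ZNRF3 and RNF43. This keeps Frizzled receptors on the cell surface and strengthens the response to a Wnt. Secreted antagonists act outside the cell, either on the Wnt itself (SFRPs, FRZB, WIF1) or on the LRP co-receptors (DKK1 and DKK2). DKK3, a divergent member of the DKK family, is placed in neither group here. In the embryonic forebrain the cortical hem, a strip of dorsal midline tissue between cortex and choroid plexus, is a local source of several Wnt ligands.

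The libraries held 9720840 to 35674113 counts. They formed a large class of at least 24856930 counts (3 Emx2 KO, 2 WT) and a small class of at most 14700549 (2 Emx2 KO, 3 WT). Sample titles end in a code of unstated meaning, and libraries of the same size class but different genotype never carry the same code, so genotype and code cannot be told apart within a size class. Summed transcripts of Y-linked genes split the libraries into a type with that signal (4 Emx2 KO, 2 WT) and a type without it (1 Emx2 KO, 3 WT). All 7 markers of cortical primordium were detected, among them Pax6, at 228 ± 20.8 CPM (reads scaled to a common library total) in WT and 289 ± 22.6 in Emx2 KO (SD, n = 5 each). Emx2 itself was lower but not absent in libraries labelled Emx2 KO (123 ± 21.1 against 186 ± 12.8 CPM, SD, n = 5 each). Its log2 fold change was -0.59 ± 0.10 (SE, edgeR adjusted p = 0.00176). Whole-gene counts do not show which part of Emx2 is altered.

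Promoter sequence was at hand for 5 of the 9 genes (Rspo1, Frzb, Wif1, Dkk1 and Dkk2) in a RefSeq-derived table of build GRCm38.p6, and not for Rspo2, Rspo3, Sfrp1 and Dkk3. The 250 bases before the RefSeq start of Rspo1, which fell in the knockout, and of Dkk2, which did not pass the test, are shown for comparison. Capitals mark the letters TATAAA, found at 32 bases before the start of Dkk2. The Rspo1 window is chr4:124986180-124986429 and the Dkk2 window chr3:132085042-132085291, both on the plus strand, 5′ to 3′.
Rspo1: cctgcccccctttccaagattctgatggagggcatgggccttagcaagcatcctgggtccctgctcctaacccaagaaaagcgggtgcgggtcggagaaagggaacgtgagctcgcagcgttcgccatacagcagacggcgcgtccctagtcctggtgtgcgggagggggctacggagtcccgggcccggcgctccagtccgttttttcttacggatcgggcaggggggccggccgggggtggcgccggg
Dkk2: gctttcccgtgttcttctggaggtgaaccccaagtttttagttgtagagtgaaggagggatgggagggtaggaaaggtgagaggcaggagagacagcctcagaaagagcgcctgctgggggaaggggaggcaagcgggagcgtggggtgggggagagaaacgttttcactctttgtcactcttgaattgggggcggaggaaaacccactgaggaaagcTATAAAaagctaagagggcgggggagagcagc

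Dkk1 and Frzb hold the letters CTTTGA, the core bound by the TCF/LEF factors that act at the end of the Wnt/beta-catenin pathway, and 30 bases around each match are shown with those letters in capitals (TCAAAG where the match is on the opposite strand). Both genes lie on the minus strand, and the sequences read 5′ to 3′ along the gene from chr19:30549653-30549682, chr19:30549596-30549625 and chr2:80447474-80447503.
Dkk1, first match: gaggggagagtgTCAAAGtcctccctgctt
Dkk1, second match: ctcctcccaaagCTTTGAaatcccatcccg
Frzb, match: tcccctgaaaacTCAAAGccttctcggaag
The matches begin 174 and 117 bases before the RefSeq start of Dkk1 and 95 bases before that of Frzb. GENCODE places the first start 169 bases farther upstream for Dkk1 and 229 for Frzb, so the second Dkk1 match and the Frzb match lie inside transcripts annotated there. CTTTGA on either strand occurs in 13.8% of 32851 promoter windows of 250 bases. TATAAA on either strand, which Dkk1, Wif1 and Dkk2 hold, occurs in 12.4%. The homeodomain core TAATTA, its own reverse complement, occurs in 4.84% and in none of the 5 windows. A match is a description of letters, and no binding was measured.

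Of the 9 genes, 7 fell in Emx2 KO (Rspo1, Rspo2, Rspo3, Frzb, Wif1, Dkk1 and Dkk3), 1 rose (Sfrp1), and Dkk2 did not pass. Calls were made with edgeR's quasi-likelihood test at an adjusted p under 0.05 (Benjamini-Hochberg, over every gene that passed the filter). Over all genes tested, 9.37% were called lower, 13.1% higher and 22.4% in either direction (1702 and 2372 genes). That balance depended on the scaling, with 2269 lower and 1927 higher under upper-quartile scaling and 2475 and 1812 with total counts alone, while the same 8 of the 9 genes were called in the same direction under both. The median log2 fold change was -1.14 for the 9 genes and -0.01 for all genes tested. The 9 genes were chosen with earlier results of these data known, so their comparison with all genes is a description and no test. The libraries of the genotypes did not overlap for 7 of the 9 genes, with Emx2 KO below WT for 6 (7.06% of all genes tested) and above it for Sfrp1 (9.63%). With title code 241022 alone (2 libraries of each genotype) only Wif1 passed, and with code 14922 alone Rspo1, Rspo2, Rspo3 and Dkk3 did. Within a code the Emx2 KO and WT libraries are of different size classes, so genotype and size class cannot be told apart there. Sampled tissue is a mixture, so fewer cells of a type and less RNA per cell cannot be told apart in any of these values.

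**Figure D1:**
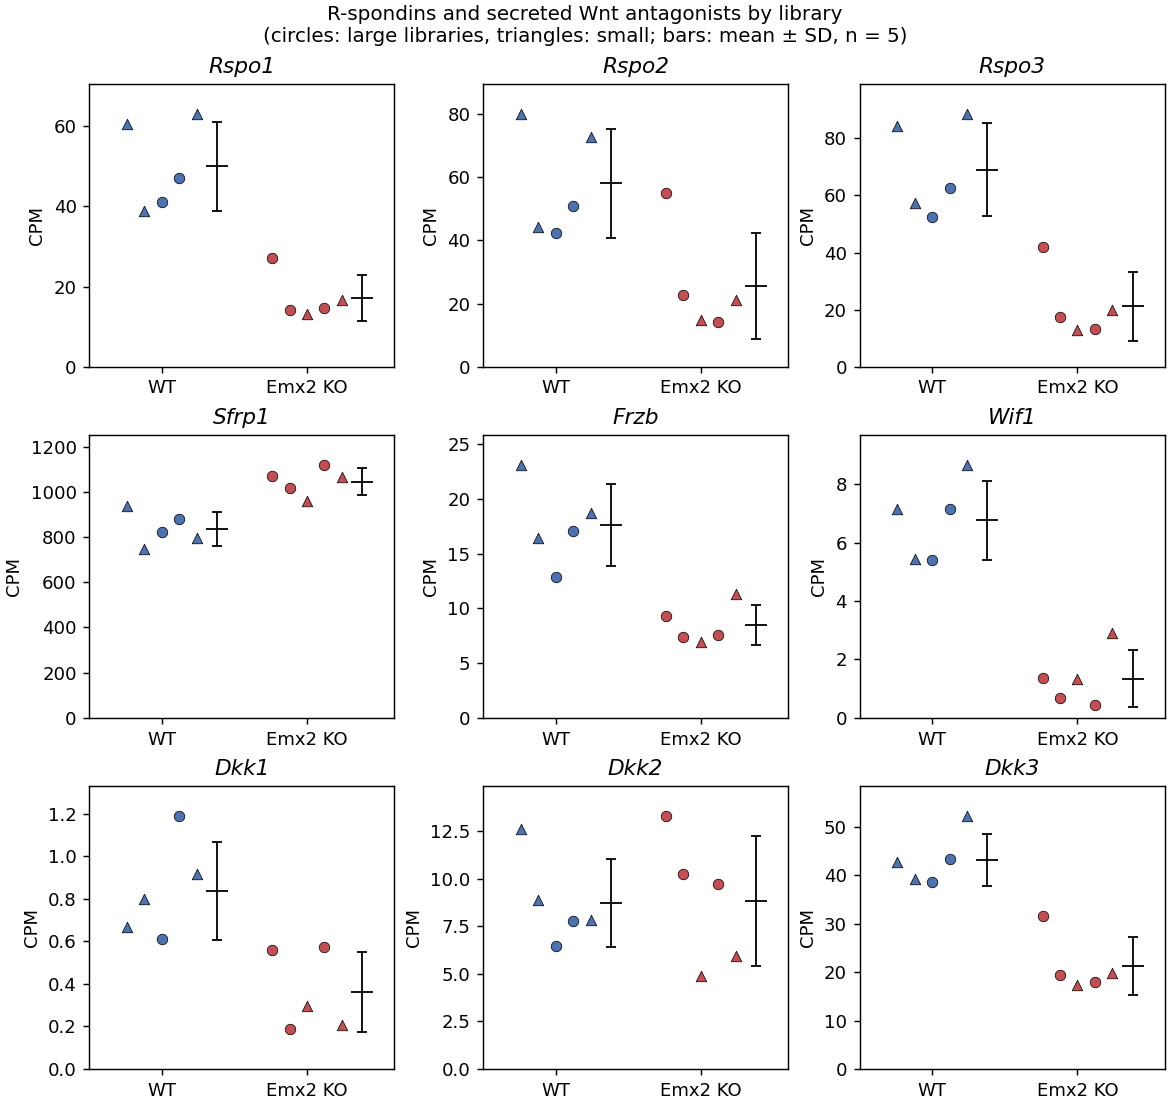
CPM of each of the 9 genes in every library, with WT in blue and Emx2 KO in red, circles for large and triangles for small libraries, and bars for the mean ± SD (n = 5). For Rspo1, Rspo3, Frzb, Wif1, Dkk1 and Dkk3 every Emx2 KO library lies below every WT library, for Sfrp1 every one lies above, and for Rspo2 and Dkk2 the groups overlap.

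The R-spondins, the Wnt-enhancing ligands of the set, fell together, to between 0.312 and 0.449 of the WT level. Rspo1 (ENSMUSG00000028871, chromosome 4) stood at 27.2, 14.1, 13.1, 14.6 and 16.6 CPM in Emx2 KO replicates 1 to 5 and at 60.4, 38.7, 40.9, 46.9 and 62.9 CPM in WT replicates 1 to 5. The highest Emx2 KO library, replicate 1, was below the lowest WT library. Rspo1 was 2.88-fold lower (17.1 ± 5.75 against 50.0 ± 11.1 CPM, log2 fold change -1.52 ± 0.21, SE, edgeR adjusted p = 0.000365).

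Rspo3 (ENSMUSG00000019880, chromosome 10) showed the largest fold of the R-spondins in this fit. It stood at 41.9, 17.5, 13.0, 13.2 and 20.1 CPM in Emx2 KO and at 84.5, 57.3, 52.4, 62.6 and 88.4 CPM in WT, in the same order of replicates. Again replicate 1 was the highest knockout library and the groups did not overlap. The log2 fold change was -1.68 ± 0.30 (edgeR adjusted p = 0.00205), a 3.21-fold decrease. In the large libraries alone it was -1.24 and did not pass (edgeR adjusted p = 0.0827).

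Rspo2 (ENSMUSG00000051920, chromosome 15) was the least certain of the R-spondins. Its CPM values were 54.9, 22.7, 14.7, 14.3 and 21.1 in Emx2 KO and 79.9, 44.4, 42.3, 50.9 and 72.8 in WT. Emx2 KO replicate 1 lay within the WT range, while the other 4 knockout libraries lay below it. The log2 fold change was -1.16 ± 0.35 (edgeR adjusted p = 0.0337), and the call was lost when any of 7 single libraries was left out (Emx2 KO replicates 2, 3, 4 and 5, WT replicates 1, 4 and 5, adjusted p up to 0.082). It was also lost in the large libraries alone (-0.60, adjusted p = 0.437) and with a robust dispersion estimate (adjusted p = 0.0669).

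Without Emx2 KO replicate 1 the log2 fold changes of Rspo1, Rspo2 and Rspo3 were -1.77, -1.66 and -2.11 (edgeR adjusted p = 4.89e-05, 0.000622 and 6.18e-05). That library held 124 CPM of R-spondin transcripts in sum, against 40.8 to 57.8 CPM in the other knockout libraries. Its summed cortical hem markers (Wnt2b, Wnt3a, Wnt5a, Lmx1a, Bmp6 and Wnt8b) were also the highest of the knockout group, at 106 CPM against 52.3 to 80.4. Its sums were also the highest of the group for blood (6243 CPM against 2094 to 3563 in the other 4), meningeal and mesenchymal (796 against 580 to 741) and endothelial markers (244 against 140 to 205), but not for choroid plexus markers (86.5, within 57.6 to 93.1). What set this library apart was not tested.

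R-spondin and hem marker transcripts moved together over the libraries. The summed hem markers ran from 52.3 to 106 CPM in Emx2 KO and from 183 to 281 CPM in WT, with 5 of 6 markers lower, Bmp6 not passing and none at 0. WT replicates 1 and 5, with the most hem marker transcripts (281 and 274 CPM), also held the most R-spondin transcripts (225 and 224 CPM). Per summed hem marker CPM, the R-spondin sum was 0.835 ± 0.186 in Emx2 KO and 0.764 ± 0.041 in WT (SD, n = 5 each). The knockout range was 0.719 to 0.780 without replicate 1, which stood at 1.16, and the WT range was 0.726 to 0.818. The part of hem tissue in the R-spondin decrease was not tested.

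**Figure D2:**
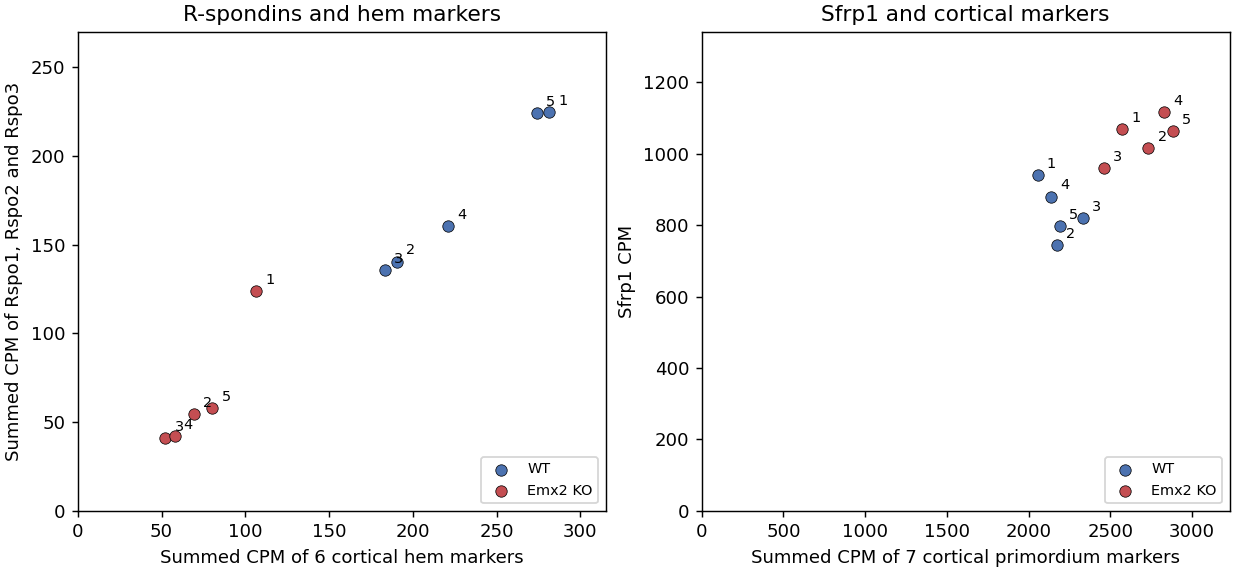
Left, summed CPM of Rspo1, Rspo2 and Rspo3 against the summed CPM of 6 cortical hem markers. Right, Sfrp1 CPM against the summed CPM of 7 cortical primordium markers. Each point is 1 library, numbered by replicate, with WT in blue and Emx2 KO in red. Hem marker sums of 52.3 to 106 CPM in Emx2 KO go with R-spondin sums of 40.8 to 124 CPM, and hem sums of 183 to 281 CPM in WT with R-spondin sums of 136 to 225 CPM.

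The mix of R-spondins shifted as well. Rspo3 made up 32.8% ± 1.42 of the R-spondin CPM in Emx2 KO and 39.1% ± 1.18 in WT (SD, n = 5 each), and the ranges (31.4% to 34.7% and 37.6% to 40.8%) did not overlap. Rspo2 took 38.5% ± 4.35 and 32.5% ± 1.76, with overlapping ranges, and the Rspo1 share was 28.7% ± 5.05 and 28.4% ± 1.32. These shares come from CPM without correction for length. They and the ratios to marker sums were chosen after the values were seen.

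Of the antagonists that bind Wnt itself, Sfrp1 rose slightly while Frzb and Wif1 fell. Sfrp1 (ENSMUSG00000031548, chromosome 8), a Frizzled-related protein expressed by progenitors of the cortical ventricular zone, stood at 1069, 1016, 959, 1117 and 1064 CPM in Emx2 KO and 940, 745, 821, 880 and 797 CPM in WT. Every knockout library was above every WT library. The rise was 1.25-fold (log2 fold change 0.32 ± 0.07, edgeR adjusted p = 0.0042). It did not pass in the small libraries alone (0.29, adjusted p = 0.195), where 2 knockout libraries face 3 WT.

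Markers of cortical primordium rose as well, with 6 of 7 called higher, a median log2 fold change of 0.34 and a summed level of 2464 to 2885 CPM in Emx2 KO against 2057 to 2335 CPM in WT. Pax6, a transcription factor of cortical progenitors, changed by 0.34 ± 0.07 and Tbr1, a transcription factor of early cortical neurons, by 0.67 ± 0.07 (log2, edgeR adjusted p = 0.0045 and 5.31e-05). Per summed marker CPM, Sfrp1 stood at 0.388 ± 0.019 in Emx2 KO and 0.385 ± 0.048 in WT (SD, n = 5 each), with overlapping ranges. Within WT, however, replicate 1 held the most Sfrp1 (940 CPM) and the lowest marker sum (2057 CPM). Replicate 3 held the highest WT marker sum (2335 CPM), with Sfrp1 at 821 CPM. The part of cortical tissue in the Sfrp1 rise was not tested.

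Frzb (ENSMUSG00000027004, chromosome 2), a secreted relative of the SFRPs, was at 9.29, 7.36, 6.90, 7.61 and 11.3 CPM in Emx2 KO and 23.1, 16.4, 12.9, 17.1 and 18.7 CPM in WT. The highest knockout library, replicate 5, stayed below the lowest WT library, replicate 3. Frzb was 2.06-fold lower (log2 fold change -1.05 ± 0.17, edgeR adjusted p = 0.00098), but did not pass in the small libraries alone (-1.09, adjusted p = 0.0688).

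Wif1 (ENSMUSG00000020218, chromosome 10), which binds Wnts through its WIF domain, showed the largest fold of the 9 genes with all libraries. It was present at 1.38, 0.669, 1.34, 0.450 and 2.91 CPM in Emx2 KO, from 11 to 42 reads per library, and at 7.16, 5.45, 5.40, 7.16 and 8.65 CPM in WT, from 75 to 241 reads. The groups did not overlap, and knockout replicate 5 held the most. The decrease was 5.23-fold (log2 fold change -2.39 ± 0.38, edgeR adjusted p = 0.00102). It was larger in the large libraries (-2.87) than in the small ones (-1.72, adjusted p = 0.0632), a difference that did not pass as an interaction (edgeR adjusted p = 0.536).

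Of the DKK genes, Dkk1 and Dkk3 fell and Dkk2 did not pass. Dkk3 (ENSMUSG00000030772, chromosome 7), a divergent member of the family, stood at 31.7, 19.4, 17.4, 18.0 and 19.9 CPM in Emx2 KO and 42.7, 39.2, 38.6, 43.4 and 52.2 CPM in WT. As with the R-spondins, knockout replicate 1 was the highest of its group, yet the groups did not overlap. Dkk3 was 2.01-fold lower (log2 fold change -1.01 ± 0.16, edgeR adjusted p = 0.000818). Per summed hem marker CPM, Dkk3 was higher in Emx2 KO (0.294 ± 0.032) than in WT (0.191 ± 0.023, SD, n = 5 each), and the ranges of 0.247 to 0.332 and 0.152 to 0.211 did not overlap.

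Dkk1 (ENSMUSG00000024868, chromosome 19), the classical LRP5/6-binding inhibitor, was close to the limit of detection. Its counts were 17, 5, 4, 14 and 3 reads in Emx2 KO and 8, 11, 22, 40 and 9 reads in WT, or 0.186 to 0.573 and 0.609 to 1.19 CPM. The groups did not overlap in CPM, although the gap between them was small. The log2 fold change was -1.14 ± 0.36 (edgeR adjusted p = 0.0393). The call was lost in 6 of the 9 fits that left out 1 library and could test the gene (without Emx2 KO replicates 2, 3 or 5 or WT replicates 1, 2 or 5, adjusted p up to 0.087). The adjusted p was also 0.0512 with the title code as a block, 0.098 with the Y-linked type of the library as a term and 0.075 with no filter on low counts.

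Dkk2 (ENSMUSG00000028031, chromosome 3), a DKK that can inhibit or activate depending on the cell, did not pass (log2 fold change 0.06 ± 0.26, edgeR adjusted p = 0.92). It stood at 13.3, 10.3, 4.90, 9.70 and 5.95 CPM in Emx2 KO and 12.6, 8.86, 6.48, 7.78 and 7.83 CPM in WT. The 3 large knockout libraries (9.70 to 13.3 CPM) lay above the 2 large WT libraries (6.48 and 7.78), whereas the 2 small knockout libraries (4.90 and 5.95) lay below the 3 small WT libraries (7.83 to 12.6). Fitted alone, the large libraries gave a log2 fold change of 0.64 (edgeR adjusted p = 0.0427) and the small ones -0.85 (adjusted p = 0.119). The interaction of genotype with size class was -1.48 ± 0.32 (log2, small minus large), with edgeR adjusted p = 0.222 (0.000866 before adjustment). The small knockout and large WT libraries all carry title code 14922 and no other library does. This interaction is therefore also the contrast of that code with the other codes, and the 2 cannot be told apart. Dkk2 stood at 4.90 to 7.78 CPM in the libraries of code 14922, of both genotypes, and at 7.83 to 13.3 CPM in the rest.

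**Figure D3:**
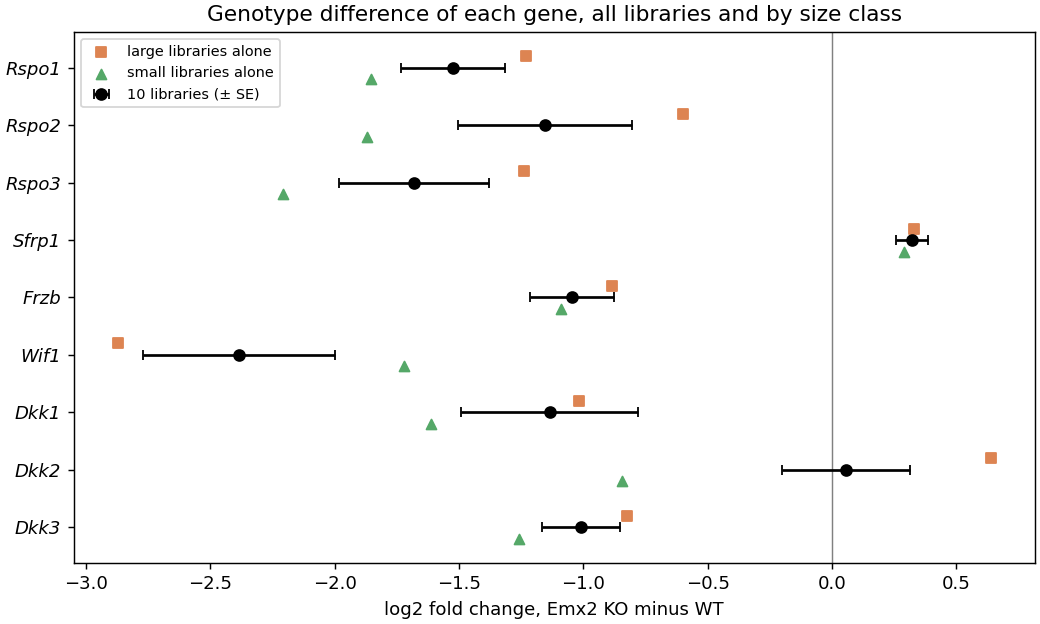
Log2 fold change of each gene, Emx2 KO minus WT, from all 10 libraries with its SE (black circles) and from the large (squares) and small (triangles) libraries alone, shown without error bars. The 7 genes that fell have values below 0 in both size classes, and Dkk2 lies at 0.64 (large) and -0.85 (small).

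Transcript levels of different genes were set side by side per kilobase of exon (CPM divided by the union of annotated exons in GENCODE). In WT, Sfrp1 was far above the others at 191 ± 17.2, followed by Rspo1 (25.8 ± 5.72), Rspo3 (22.3 ± 5.29), Dkk3 (12.9 ± 1.62), Rspo2 (11.4 ± 3.36), Frzb (5.45 ± 1.15), Wif1 (2.79 ± 0.562), Dkk2 (2.35 ± 0.627) and Dkk1 (0.344 ± 0.095 CPM per kilobase, SD, n = 5 each). The library ranges of neighbours overlapped for Rspo1 and Rspo3, for Dkk3 and Rspo2, and for Wif1 and Dkk2, and for no other neighbours. Compared within each WT library, Rspo1 was above Rspo3 in all 5, Dkk3 above Rspo2 in 4 and Wif1 above Dkk2 in 3. In Emx2 KO, Sfrp1 stood at 239 ± 13.7 CPM per kilobase and Rspo1 next at 8.84 ± 2.97. From Rspo1 down through Rspo3, Dkk3, Rspo2, Frzb and Dkk2 each range overlapped the next. Within single knockout libraries, Rspo1 was above Rspo3 in all 5 and Rspo2 above Frzb in all 5. Dkk3 was above Rspo2 in 4, Rspo3 above Dkk3 in 2 and Frzb above Dkk2 in 2. Wif1 (0.556 ± 0.396) was below Dkk2 (2.38 ± 0.917) in all 5 knockout libraries, and their ranges did not overlap, whereas those of Wif1 and Dkk1 did. R-spondin transcripts in sum amounted to 21.1% ± 4.78 of the Sfrp1 CPM in WT and 6.08% ± 3.16 in Emx2 KO (SD, n = 5 each), without correction for length.

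Among the receptors for these ligands, the pair of ubiquitin ligases that R-spondins bind fell, and of the LGR receptors none passed. Rnf43 stood at 2.51 ± 0.903 CPM in Emx2 KO and 5.83 ± 0.248 in WT (log2 fold change -1.19 ± 0.22, edgeR adjusted p = 0.00238). Znrf3 stood at 44.7 ± 4.39 and 59.6 ± 7.50 CPM (-0.41 ± 0.09, adjusted p = 0.00794). Both are also known as feedback targets of the pathway. Lgr4 (0.23 ± 0.22) and the low-level Lgr6 (-0.71 ± 0.39) did not pass, and Lgr5 was too low to be tested (0.111 ± 0.067 and 0.513 ± 0.279 CPM).

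Among the receptors that DKK1 and DKK2 bind, Lrp6 fell by a small amount (-0.13 ± 0.04, edgeR adjusted p = 0.0403). Lrp5 (-0.01 ± 0.05) and Kremen1 (-0.08 ± 0.07) did not pass, and Kremen2 was too low to be tested. The receptor list thus had 3 lower and 0 higher of 7 tested, with a median of -0.13.

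Other secreted or surface modulators of Wnt signalling were mixed, with 3 lower and 1 higher of 11 tested and a median of 0.05. Sostdc1, which binds LRP co-receptors, stood at 7.78 ± 1.21 CPM in WT and 2.57 ± 0.638 in Emx2 KO (-1.59 ± 0.18 on the log2 scale, edgeR adjusted p = 0.000106). Apcdd1, a membrane inhibitor and target of the pathway, fell from 176 ± 22.9 to 79.5 ± 21.7 CPM (-1.14 ± 0.16). Notum, an enzyme that inactivates Wnts, fell at a low level, from 1.08 ± 0.215 to 0.431 ± 0.271 CPM. Its log2 fold change was -1.23 ± 0.37 (edgeR adjusted p = 0.0343). Its highest knockout library (0.820 CPM) was just below its lowest WT library (0.833 CPM). Ndp, a Frizzled ligand outside the Wnt family, rose from 3.47 ± 0.785 to 6.38 ± 0.847 CPM (0.87 ± 0.16). The SFRP relatives Sfrp2 (0.26 ± 0.11, adjusted p = 0.129) and Sfrp4 (-0.11 ± 0.21), named after their values were seen, did not pass.

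Of 12 Wnt ligand genes tested 7 fell and 2 rose, with a median of -1.03. Among them, Wnt2b, Wnt3a, Wnt5a and Wnt8b also belong to the cortical hem markers. The 4 with the smallest p were Wnt2b (-2.31 ± 0.10), Wnt5a (-1.62 ± 0.13), Wnt7b (-0.99 ± 0.10) and Wnt3a (-1.79 ± 0.22, edgeR adjusted p = 0.00021). Those that rose, named after their values were seen, were Wnt7a (34.4 ± 4.90 to 51.2 ± 2.86 CPM, 0.57 ± 0.09) and Wnt1, at a low level (0.130 ± 0.118 to 0.908 ± 0.250 CPM). Summed over the list, Wnt ligand transcripts ran from 181 to 253 CPM in Emx2 KO and from 362 to 484 CPM in WT.

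Feedback targets of the Wnt/beta-catenin pathway had 10 lower and 1 higher of 14 tested, with a median of -0.48. This list holds Dkk1 and shares Notum, Znrf3, Rnf43, Lgr5 and Apcdd1 with the lists above. Axin2, the pathway's general negative regulator, fell from 129 ± 15.3 to 89.6 ± 11.3 CPM (-0.52 ± 0.10, edgeR adjusted p = 0.00233), and the receptor gene Tnfrsf19 by 0.52 on the log2 scale. Ccnd1, a cell cycle gene with many other inputs, rose (0.84 ± 0.14, adjusted p = 0.00103).

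**Figure D4:**
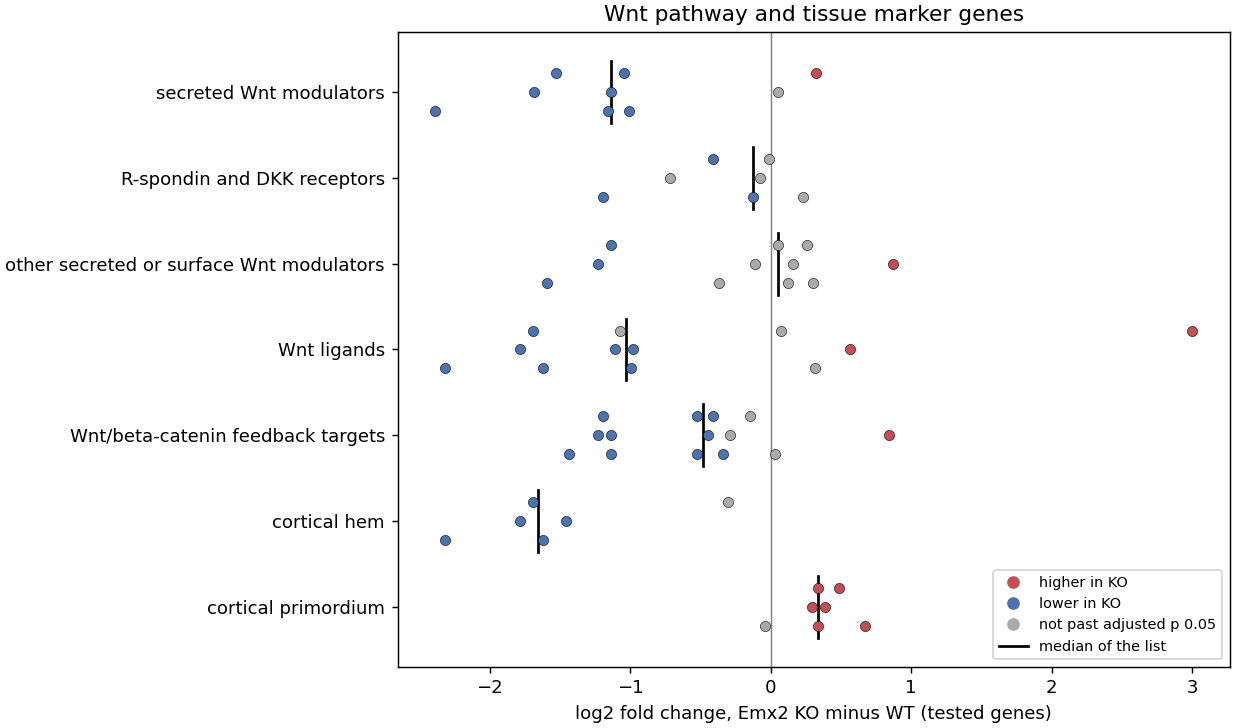
Log2 fold change, Emx2 KO minus WT, of the tested genes of each list, coloured by call (red higher, blue lower, grey not past adjusted p of 0.05), with a bar at the median of the list. The 9 secreted modulators have a median of -1.14, the Wnt ligands of -1.03 and the cortical hem markers of -1.66, while the cortical primordium markers have a median of 0.34. The ligand and hem lists share Wnt2b, Wnt3a, Wnt5a and Wnt8b.

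Markers of other tissues that can hold these transcripts moved in part with the genotype. Choroid plexus markers were lower, 6 of 8, with sums of 57.6 to 93.1 CPM in Emx2 KO and 254 to 307 CPM in WT. The 6 decreases ran from 1.51-fold (Aqp1) to 54.8-fold (Kcne2), with Ttr at 49.0-fold. Otx2, which did not pass, made up most of the knockout sum (mean 59.3 of 77.6 CPM). Meningeal and mesenchymal markers were called lower in 1 of 9 (Ogn), and their sums overlapped (580 to 796 CPM and 556 to 785 CPM). Endothelial, blood and microglial markers had 0 of 11 called, again with overlapping sums. Subpallial markers were higher, 5 of 7, with sums of 97.5 to 439 CPM in Emx2 KO and 41.6 to 174 CPM in WT. Thalamic eminence and diencephalic markers had 3 of 5 lower and 1 higher, those of the antihem 1 lower and 1 higher of 5, and those of surface epithelium and eye 1 lower of 2 tested, with Krt5 at 0 in every library. The part of these tissues in the results for the 9 genes was not tested.

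Genes with the most similar profile over the 10 libraries were found by the root-mean-square difference of mean-centred log2 CPM, among about 15790 genes of at least 1 CPM. The nearest to Rspo3 were Wnt8b, a Wnt of hem and medial cortex (0.182), and Sp5, a Wnt-responsive transcription factor gene (0.205). Sp5 was also near Rspo2 (0.238), after Wnt9a (0.236), and Rspo1 was nearest to Tmem132c (0.162) and Dmrt1 (0.177). For the antagonists the nearest were Gprc5b (0.057) and Igf2bp2 (0.060) for Sfrp1, Flrt3 (0.133) and Prex2 (0.174) for Frzb, and Calml4 and Mybpc1 (0.499 each) for Wif1. For the DKKs they were Cav2 (0.118) and Plekhg1 (0.135) for Dkk3, S100a10 (0.168) and Oaf (0.185) for Dkk2, and Nipal4 (0.286) and Gbp7 (0.288) for Dkk1. The difference is in log2 units, includes the genotype difference itself, and is a description with no test.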

How the data were processed

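Reads were handled with bcl2fastq 2.20, then STAR 2.7.8a, with featureCounts 1.6.3-p1 also named, per the submitters' processing notes, which list GRCm39 and rn6 as builds. How strand, parameters and annotation were set is not stated. The authors deposited unnormalized read counts, 1 table per library, by Ensembl identifier. Symbols matched 52073 of 56748 identifiers. Antisense or nested genes annotated over Rspo1 and Rspo3 held at most 22 reads in any library.

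Genes were filtered with filterByExpr (minimum count 10), scaled by TMM and tested with edgeR 4.0.16 (R 4.3.3), quasi-likelihood, genotype as the only term, two-sided. SE was derived from the F statistic. CPM uses TMM-scaled totals. Replicate numbers follow accession order. No 2 libraries of a genotype agreed within sampling noise (20 pairs, chi-square per gene of 9.06 to 23.7). The procedure was tested on simulated counts. Alternatives were DESeq2 1.42.0, limma-voom (limma 3.58.1), other scalings, filters and blocks, subsets and each library left out.

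The 9 genes and the lists were chosen with earlier results of these data known. Genes named were the 9, Emx2, all receptors, up to 4 genes of each other pathway list with the smallest p past the threshold, the 2 most similar profiles per gene, and marker lists. Promoters came from RefSeq (GRCm38.p6), exon lengths from GENCODE (GRCm38).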

Additional observations from a re-analysis of the deposited data

Results flagged for a closer look

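In 4 of the 18 groups of 5 libraries examined (9 genes, 2 genotypes), 1 library lay far from the other 4 (its distance to the nearest of them, divided by the whole range, exceeded 0.71). Chance flags about 1 in 20 such groups. All 4 were Emx2 KO replicate 1 as the highest of its group. The ratios were 0.753 for Rspo1, 0.793 for Rspo2, 0.755 for Rspo3 and 0.826 for Dkk3, and these values share 1 library, so they are not independent of each other. Without it, mean knockout levels were 14.6 ± 1.46 CPM for Rspo1, 18.2 ± 4.33 for Rspo2, 15.9 ± 3.44 for Rspo3 and 18.7 ± 1.17 for Dkk3 (SD, n = 4 each).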

How the results depend on the processing

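Of the 9 genes, 7 were called lower and 1 higher with all libraries. Leaving out 1 library at a time gave 5 to 7 lower and 1 higher. The large libraries alone gave 4 lower and 2 higher, the small ones 4 and 0, title code 241022 alone 1 and 0, and code 14922 alone 4 and 0, where fewer libraries were compared. No gene called with all libraries changed direction under any of these. Counts over the other pathway genes (18 lower, 4 higher) became 9 and 0 in the small libraries, 4 and 1 with code 241022, and 11 and 3 with code 14922. Counts over all genes (1702 lower, 2372 higher) became 264 and 294, 248 and 195, and 567 and 847 in those subsets, and 836 and 1367 at adjusted p under 0.01. With the Y-linked type as a term they were 1454 and 1916, and of the 9 genes only Dkk1 lost its call. Dkk2 (log2 fold change 0.06) turned to -0.034 with the title code as a block, -0.036 with size class as a block, -0.85 in the small libraries and -0.40 with code 14922, and ran from -0.14 to 0.22 as single libraries were left out. The interaction with size class called 0 of the 9 genes and 0 of all 18163 (edgeR, 1 and 1791 at unadjusted p under 0.05), and 0 of each with a minimum mean of 1 CPM. It is also the contrast of title code 14922 with the other codes. The robust estimate and the alternatives for the counts over other pathway genes were added after the data were seen. Dkk1 had only 3 to 40 reads per library, and did not pass in the large libraries alone either (-1.02, edgeR adjusted p = 0.221).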
